A study of Rattus norvegicus with 6 samples.

Results

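The neurotrophins BDNF and NT-3, the glial growth factor GDNF and their receptors were followed in rat C6 glioma cells, a glial tumour cell line, after 24 h in forskolin (FSK) or in the vehicle DMSO. The 7 genes were chosen by name: the ligand genes Bdnf, Ntf3 and Gdnf, and the receptor genes Ngfr, Ntrk2, Ret and Gfra1. Of these, 6 had a row among the 32623 genes of the deposited table, and Gfra1 is not analysed here. Of the 6, Ntf3 and Ret had 0 counts in every library, and 4 passed the filter on low counts and were tested among 14166 genes. Both groups were C6 cells grown in serum-supplemented medium and differed, per the labels, in the agent alone; the forskolin dose is not given in the sources used here. Total RNA was sequenced in 3 libraries per group, and nothing in the labels says that the libraries came from separate cultures, so the p-values measure the spread between these libraries, which may be technical. The title of the series names the cAMP, PKA and CREB1 pathway and the differentiation of glioma cells as its subject.

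Neurotrophins are secreted growth factors of neurons and glia that are made as precursors and cut to mature dimers. Mature neurotrophins act through Trk receptor tyrosine kinases, with TrkB (encoded by Ntrk2) as the receptor for BDNF and TrkC for NT-3. All neurotrophins also bind the p75 receptor (encoded by Ngfr), which together with sortilin binds the uncut precursors. GDNF, first purified from glial cells, binds the anchored co-receptor GFRα1, and the complex activates the receptor tyrosine kinase RET; NCAM can stand in for RET. Forskolin activates adenylyl cyclase, and the cAMP it raises acts through PKA on the transcription factor CREB, which binds cAMP response elements (CRE) in DNA.

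Libraries held 72.1 to 79.99 M counts. Of the tested genes, 39.4% were called at an adjusted p of 0.05, with 19.6% higher and 19.8% lower in FSK, and in 53% the CPM (counts divided by the TMM-corrected library total, in M) of the groups did not overlap. Of 8 astrocyte markers, which a glial line should hold, 6 were tested. Of these, 4 rose, Slc1a3 fell, and Slc1a2, at 0 to 37 counts, did not pass. Aldh1l1, at 0 to 15 counts, and Aqp4, at 0, were not tested. The list summed to 568.7 to 584.8 CPM in DMSO and 1353 to 1404 CPM in FSK, mostly from Aldoc and S100b. Of 6 tested neuron markers, the tubulin gene Tubb3 rose, the neurofilament gene Nefm and the synaptic gene Syt1 fell, and 3 did not pass; their list summed to 208.2 to 217.9 CPM in DMSO and 173.8 to 198.2 in FSK, mostly from the neurofilament genes Nefl and Nefm, with the splicing factor gene Rbfox3 at 0. Of 4 tested microglia, endothelial and fibroblast markers, 1 rose and 1 fell, and their list summed to 37.5 to 44.9 CPM in DMSO and 42.9 to 47.6 in FSK, with Cldn5 and Cdh5 at 0. In bulk RNA, fewer cells of a type and less RNA per cell cannot be told apart.

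Of the 4 tested members, the receptor gene Ngfr rose, the receptor gene Ntrk2 and the ligand gene Gdnf fell, and the ligand gene Bdnf did not pass the test. That is 3 calls among 4 genes beside the 39.4% called among all tested genes. The groups did not overlap for the 3 called members, beside the 53% of all tested genes.

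Ngfr (ENSRNOG00000005392; chr10:83389847-83408061 on Rnor_6.0, minus strand) encodes the p75 neurotrophin receptor, a death-domain receptor of the TNF receptor family. It had 249.7, 249.1 and 212.2 CPM in DMSO replicates 1 to 3 and 567.8, 613.2 and 620.1 CPM in FSK replicates 1 to 3. Every FSK library was above every DMSO library. The group means were 237.0 ± 21.5 CPM in DMSO and 600.4 ± 28.4 CPM in FSK (SD, n = 3). The log2 fold change was 1.34 ± 0.07 (SE; adjusted p = 8.21e-06, edgeR quasi-likelihood test with Benjamini-Hochberg adjustment over all tested genes), which is 2.53-fold with a 95% interval of 2.25 to 2.85. Of all tested genes, 92.6% had a smaller absolute log2 fold change. p75 is itself known as a marker of Schwann cells and their precursors, and most listed markers of Schwann cells and oligodendrocytes rose with it. Of the 9 on that list, 6 rose and none fell, 66.7% called beside 39.4% of all tested genes. Pmp22 was lower without overlap, from 165.0 to 151.6 CPM, but did not pass (adjusted p = 0.0768, edgeR). Mbp and Mog did not pass either (adjusted p = 0.519 and 0.889). The summed CPM of the list was 1175 to 1309 in DMSO and 2039.9 to 2200.4 in FSK, and none of the markers was at 0. A rise was not particular to that list. Of 6 tested astrocyte markers, 4 rose and 1 fell, 83.3% called. Their median log2 fold change was 1.35, beside 0.82 for the Schwann cell and oligodendrocyte list. The part of either list in the Ngfr result was not tested.

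Ntrk2 (ENSRNOG00000018839; chr17:5933729-6244676, minus strand) encodes TrkB, the tyrosine kinase receptor for BDNF. The gene is known to give full-length TrkB and truncated forms that lack the kinase, and astrocytes are known for a truncated form. The table pools 3 transcripts of the gene, so its counts cannot tell these forms apart. Ntrk2 had 69.5, 77.3 and 84.4 CPM in the 3 DMSO libraries and 19.7, 23.0 and 19.1 CPM in the 3 FSK libraries. The highest FSK library was below the lowest DMSO library. The means were 77.1 ± 7.45 CPM and 20.6 ± 2.07 CPM (SD, n = 3), and Ntrk2 fell by 1.90 ± 0.10 on the log2 scale (adjusted p = 6.37e-06, edgeR), a 3.74-fold lower level; the 95% interval of the FSK to DMSO ratio was 0.228 to 0.314. Of all tested genes, 96.3% had a smaller absolute log2 fold change.

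Ret (ENSRNOG00000014751; chr4:150202058-150244372, minus strand), the kinase that carries the GDNF signal, had 0 counts in all 6 libraries. A count of 0 allows a level of up to 0.0364 to 0.0422 CPM, taking 3 counts per library as the limit and counting error alone. That limit takes the counts as independent, and it would be higher if both reads of a pair were counted. Ret RNA was therefore not detectable at this depth in either group, and no fold change can be given.

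**Figure D1:**
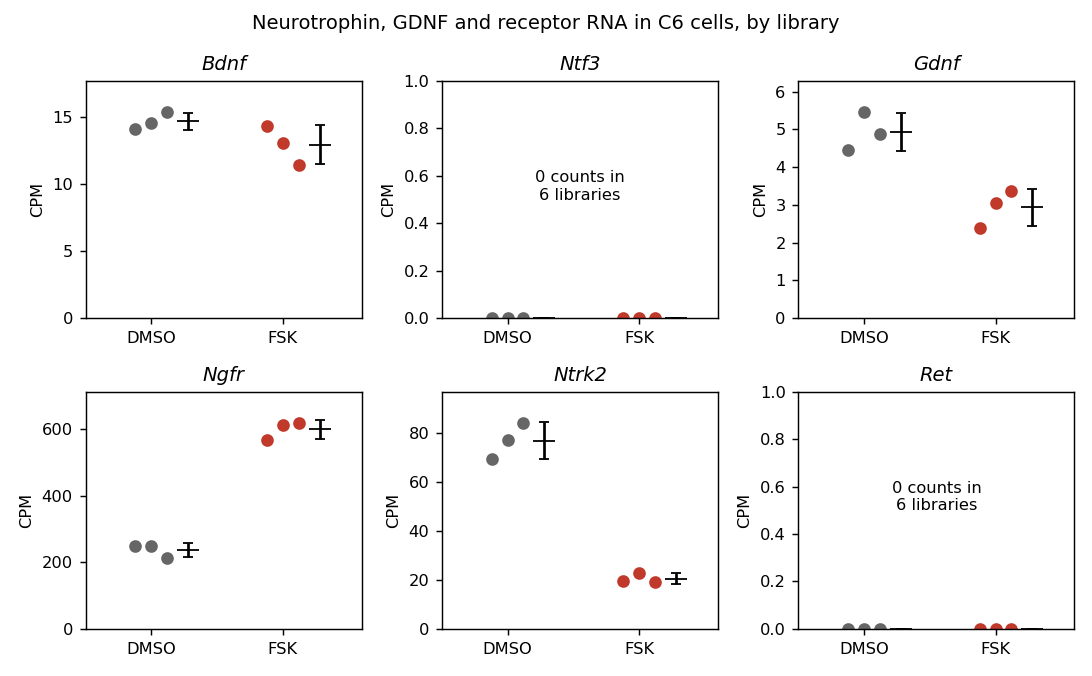
CPM in each library for the 6 members with a row, with DMSO in grey and FSK in red; black bars give the group mean and SD (n = 3), and each panel has its own axis from 0. Ngfr was higher in every FSK library, Ntrk2 and Gdnf were lower in every FSK library, the Bdnf groups overlapped, and Ntf3 and Ret had 0 counts.

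Gdnf (ENSRNOG00000012819; chr2:56887987-56910238, plus strand) encodes the glial cell line-derived neurotrophic factor and was present at low counts, 182 to 446 per library. It had 4.45, 5.46 and 4.87 CPM in DMSO replicates 1 to 3 and 2.38, 3.06 and 3.36 CPM in FSK replicates 1 to 3. The groups did not overlap, and FSK replicate 3 came nearest to the DMSO libraries. The means were 4.93 ± 0.507 CPM and 2.93 ± 0.5002 CPM (SD, n = 3). Gdnf fell by 0.75 ± 0.19 on the log2 scale (adjusted p = 0.0144, edgeR), and the 95% interval of the FSK to DMSO ratio was 0.441 to 0.803. The call was lost without DMSO replicate 2, where the log2 fold change was -0.67 with adjusted p = 0.0633. Without FSK replicate 1 the log2 fold change was -0.62 and the call was kept (adjusted p = 0.0391, edgeR). Over all 14 alternative settings adjusted p ran from 0.00457 to 0.0633. The table holds 1 Gdnf transcript, and the length implied by its counts and FPKM was 718 bases, so reads from any longer form outside that model would not be counted.

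Bdnf (ENSRNOG00000047466; chr3:100768637-100819210, plus strand) encodes brain-derived neurotrophic factor and is a textbook CREB target in neurons, where activity and cAMP act on its several promoters. It had 14.1, 14.6 and 15.4 CPM in the DMSO libraries and 14.3, 13.0 and 11.4 CPM in the FSK libraries. FSK replicate 1 lay inside the DMSO range, and the other FSK libraries lay below it. The means were 14.7 ± 0.649 CPM and 12.9 ± 1.46 CPM (SD, n = 3), and the log2 fold change was -0.18 ± 0.11 (adjusted p = 0.226, edgeR). The 95% interval of the FSK to DMSO ratio, 0.737 to 1.05, holds no rise above 1.05-fold at 24 h in the sum of the 8 Bdnf transcripts that the table pools. Changes of a single transcript, or at earlier times, are not analysed here.

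Ntf3 (ENSRNOG00000019716; chr4:158636884-158705886, minus strand), which encodes NT-3, had 0 counts in all 6 libraries, with the same limit of 0.0364 to 0.0422 CPM. Ntrk3, the gene of its receptor TrkC, also had 0 counts in all 6 libraries.

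The bases before the start sites of the ligand genes are shown because a CRE is the DNA element through which CREB acts. RefSeq start sites on the build GRCr8 gave 12 windows of 250 bases for 5 members (Bdnf, Ntf3, Gdnf, Ret and Gfra1). Ngfr and Ntrk2 had no window, and some windows of Bdnf and of Ntf3 share bases. The full palindrome TGACGTCA was in none of them; 1.59% of all 33465 rat windows hold it. The short core CGTCA, or TGACG on the other strand, was in 2 windows, beside 18.2% of all windows; every full palindrome also holds both short cores. These were the Gdnf window (chr2:58621077-58621326, plus strand, GRCr8) and the fourth of 6 Bdnf windows (chr3:116637608-116637857, plus strand, GRCr8), printed 5′ to 3′ with the core in capitals.
Gdnf: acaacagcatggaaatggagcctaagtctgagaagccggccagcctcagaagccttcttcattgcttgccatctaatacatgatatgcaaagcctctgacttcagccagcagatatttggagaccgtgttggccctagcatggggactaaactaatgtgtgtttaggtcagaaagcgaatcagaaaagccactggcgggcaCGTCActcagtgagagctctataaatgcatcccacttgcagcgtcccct
Bdnf: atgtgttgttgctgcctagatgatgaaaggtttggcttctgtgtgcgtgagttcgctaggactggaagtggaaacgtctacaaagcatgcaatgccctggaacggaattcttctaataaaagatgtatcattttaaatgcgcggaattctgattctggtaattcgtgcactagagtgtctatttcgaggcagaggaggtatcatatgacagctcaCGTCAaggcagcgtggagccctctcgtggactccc
The core began 49 bases before the Gdnf start and 35 bases before that Bdnf start. A match of letters is a description, and whether CREB binds at either place was not tested here. The Gdnf counts fell and the Bdnf counts did not pass the test, and use of any of the 6 Bdnf starts cannot be read from a sum over transcripts.

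The members differed in level as well as in change. Levels between genes are compared as FPKM, the authors' value scaled by transcript length and library total. The lengths implied by counts and FPKM were 718 bases for Gdnf, 3335 for Ngfr, 6224 for Bdnf and 10954 for Ntrk2. The order below, and the size of ratios between genes, rest on these lengths. Which transcript forms were present was not tested. By CPM, without length, Ntrk2 (77.1 in DMSO) and Bdnf (14.7) stood above Gdnf (4.93). In DMSO, Ngfr stood highest with 72.7 ± 5.54 FPKM (SD, n = 3), above 90.4% of tested genes. Ntrk2 with 7.21 ± 0.813 FPKM and Gdnf with 7.03 ± 0.754 FPKM did not differ beyond their spread, and Bdnf followed with 2.42 ± 0.147 FPKM. In FSK, Ngfr reached 175.7 ± 6.65 FPKM, above 96.1% of tested genes. Gdnf stood next with 3.98 ± 0.639 FPKM, and Bdnf with 2.03 ± 0.251 FPKM and Ntrk2 with 1.84 ± 0.192 FPKM overlapped. Ntrk2 FPKM values thus overlapped those of Gdnf in DMSO and those of Bdnf in FSK.

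The balance of the p75 and TrkB receptor transcripts was read within each library as the ratio of Ngfr to Ntrk2 FPKM. It was 11.8, 10.6 and 8.26 in the DMSO libraries and 94.7, 87.6 and 106.4 in the FSK libraries. The ratio was 9.50-fold higher in FSK as a geometric mean, and the groups did not overlap (two-sided exact permutation p = 0.1, the smallest that 3 against 3 libraries can give). The Bdnf to Gdnf FPKM ratio was 0.365, 0.308 and 0.364 in DMSO and 0.693, 0.492 and 0.391 in FSK, again without overlap (exact permutation p = 0.1). These were the 2 ratios computed, and both had a Benjamini-Hochberg adjusted p of 0.1. Each ratio combines members whose changes are given above, so it describes them again and is not separate evidence.

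**Figure D2:**
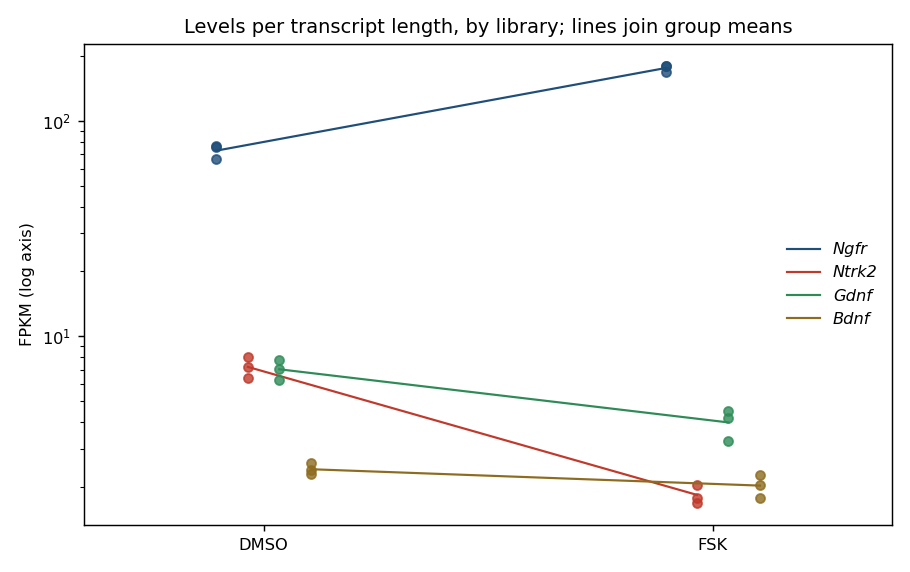
FPKM on a log axis for the 4 members with counts, 1 point per library, with lines joining the group means of DMSO (left) and FSK (right). Ngfr and Ntrk2 moved apart, from a mean ratio of 10.2 in DMSO to 96.3 in FSK, and the Ntrk2 points lie among those of Gdnf in DMSO and of Bdnf in FSK.

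**Figure D3:**
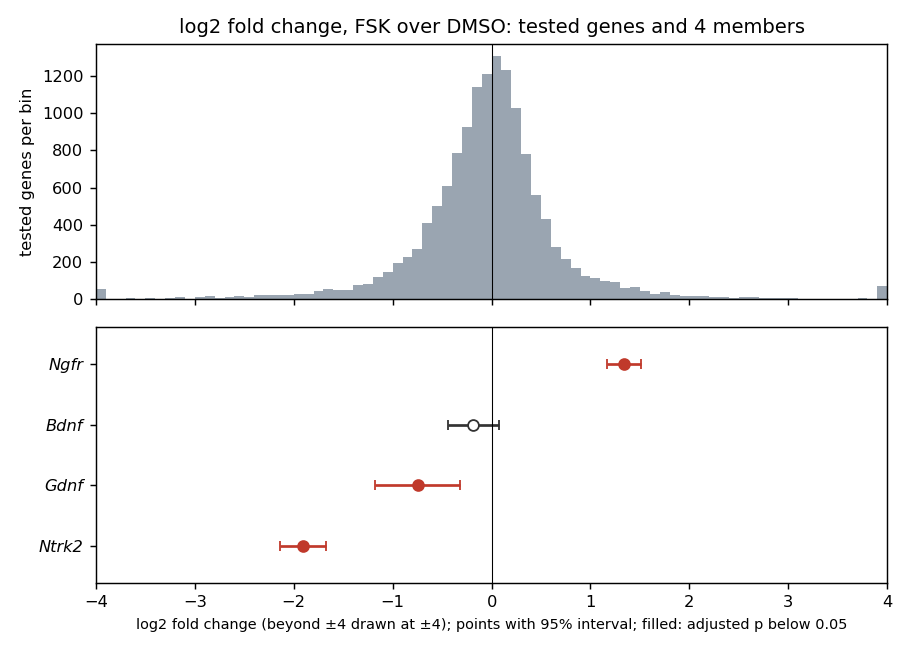
Upper panel, the number of tested genes by log2 fold change, FSK over DMSO; lower panel, the 4 tested members with 95% intervals, filled where the adjusted p was below 0.05. Ntrk2 at -1.90 and Ngfr at 1.34 lie in opposite tails of the distribution, and the interval of Bdnf at -0.18 crosses 0.

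The other ligands of both families were mostly scarce, and 2 of 8 rose and none fell, 25% called beside 39.4% of all tested genes. Gdf15, a stress-induced ligand that signals through GFRAL and RET, rose by 1.45 ± 0.15, from 3.39 ± 0.491 to 9.28 ± 0.380 CPM (adjusted p = 2e-04, edgeR). Gfral, its co-receptor gene, had 0 counts in all 6 libraries, as Ret had. The neurotrophin gene Ntf4 had DMSO counts of 186, 118 and 159 and FSK counts of 58, 79 and 114, with overlapping groups in CPM and adjusted p = 0.0929. The RET ligand genes Nrtn, Artn and Pspn reached no more than 34, 25 and 46 counts in their highest libraries and did not pass. Manf and Cdnf encode proteins of the endoplasmic reticulum that share the neurotrophic factor name but are not RET ligands. Cdnf reached no more than 36 counts and did not pass (adjusted p = 0.308), whereas Manf was abundant at 227.9 ± 16.2 and 239.6 ± 4.30 CPM and did not pass (adjusted p = 0.381).

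Of 12 tested receptors and co-receptors other than the members, 5 rose, 4 fell and 3 did not pass, 75% called beside 39.4% of all tested genes, with a median log2 fold change of 0.04 beside -0.01 for all tested genes. Sort1 and Sorcs2, genes of p75 partners, were among those that rose. Sort1 encodes sortilin, which forms the receptor for pro-neurotrophins with p75; its DMSO counts were 5391, 5872 and 6090, and its FSK counts 9931, 11222 and 12654. It rose by 1.05 ± 0.09, from 73.3 ± 1.18 to 151.5 ± 18.9 CPM (adjusted p = 7.52e-05, edgeR). Sorcs2, a sortilin-family receptor that also pairs with p75, rose by 0.86 ± 0.07, from 64.4 ± 3.54 to 116.6 ± 9.28 CPM (adjusted p = 8.17e-05). The groups of both genes did not overlap. Sorcs1 and Sorcs3 had 0 counts in all 6 libraries.

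Among co-receptors of the GDNF family, Gfra2, encoding the neurturin receptor GFRα2, had DMSO counts of 17, 20 and 0 and FSK counts of 98, 123 and 224. It rose at low level, from 0.160 ± 0.138 to 1.99 ± 0.858 CPM (adjusted p = 0.0136), with no overlap. The adjusted p of Gfra2 was 0.0584 without FSK replicate 3. Its fitted log2 fold change of 3.63 depends on a DMSO library at 0 and was 3.03 without DMSO replicate 3. Gfra3 had counts in 1 library only, 8 in DMSO replicate 2, and Gfra4 had 0 counts in all 6. Ncam1, the alternative GDNF receptor, was abundant at 188.0 ± 15.2 CPM in DMSO and 160.1 ± 13.8 CPM in FSK. It did not pass (log2 fold change -0.23 ± 0.08, adjusted p = 0.0561), with overlapping groups, and adjusted p of 0.0174 to 0.163 over 14 alternatives, 7 of which called it. Sdc3, encoding the heparan sulphate proteoglycan syndecan-3 that binds GDNF, rose by 0.31 ± 0.07 (adjusted p = 0.00709). Gas1, a GFRα-related surface protein, had DMSO counts of 54, 58 and 59 and FSK counts of 128, 83 and 92; its call (adjusted p = 0.0459) was lost in 10 of 14 alternatives, among them each library left out, with adjusted p up to 0.146.

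Among the remaining receptor-associated genes, those of the Lrig family of transmembrane proteins, of which Lrig1 is known to restrain receptor tyrosine kinases including RET, were lower in FSK. Lrig2 fell by 0.61 ± 0.15 (adjusted p = 0.0133; 0.0507 without DMSO replicate 3), Lrig3 by 0.59 ± 0.13 (0.00716) and Lrig1 by 0.35 ± 0.11 (0.0288), all by edgeR. Without DMSO replicate 2, FSK replicate 1 or FSK replicate 2, the adjusted p of Lrig1 was 0.103, 0.0544 and 0.0962. Kidins220, a scaffold of Trk receptors, fell by 0.28 ± 0.08 (adjusted p = 0.0221); its adjusted p was 0.0787 and 0.0733 when DMSO replicates 2 and 3 were left out in turn, and 0.0735 and 0.0868 for FSK replicates 2 and 3. Lingo1, a p75 co-receptor gene in myelin signalling, had 17 to 112 counts and did not pass (adjusted p = 0.156), and Rtn4r had counts in 1 library only, 4 in FSK replicate 2. Sorl1 is not analysed here.

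Genes that cut neurotrophin precursors or serve the secretory route went both ways. Of 11 tested, 5 rose, 4 fell and 2 did not pass, 81.8% called beside 39.4% of all tested genes, with a median of 0.10. Mmp3, a metalloproteinase known to cleave pro-neurotrophins outside the cell, rose by 5.28 ± 0.08, from 11.7 ± 1.06 to 453.7 ± 7.47 CPM (adjusted p = 1.8e-08, edgeR). Plat encodes tissue plasminogen activator, which starts the plasmin cascade that cleaves pro-BDNF. Its counts were 2889, 2827 and 3133 in DMSO and 9545, 9504 and 9770 in FSK, and it rose by 1.79 ± 0.07 (adjusted p = 1.22e-06). Plg, the gene of plasminogen itself, reached no more than 19 counts and did not pass (adjusted p = 0.964). Cpe, encoding carboxypeptidase E of the regulated secretory pathway, which also sorts pro-BDNF, rose by 0.96 ± 0.05 (adjusted p = 9.4e-06). Scg2, the granule protein secretogranin II, fell by 0.65 ± 0.15 (adjusted p = 0.00980). Of the convertases in the secretory pathway, named after their values were seen, Furin rose by 0.45 ± 0.06 (adjusted p = 0.00105) and Pcsk6 fell by 0.57 ± 0.05 (adjusted p = 7.49e-05). Pcsk7 did not pass (-0.08 ± 0.07, adjusted p = 0.381), Pcsk1 had 4 counts in 1 library, and Pcsk5 had 0 in all 6. Pcsk2, with DMSO counts of 89, 65 and 84 and FSK counts of 22, 0 and 4, was called lower (log2 fold change -3.13 ± 0.998, adjusted p = 0.0381), but lost its call in 5 of the 13 alternatives that tested it, with adjusted p of 0.0554 with no filter on low counts, of 0.0956, 0.0720 and 0.0952 when DMSO replicates 1 to 3 were left out in turn and 0.115 without FSK replicate 3. Leaving out FSK replicate 1, which held the 22 counts, moved its log2 fold change to -5.16. Pcsk2 overlaps AABR07054045 on the other strand, which had 89 to 216 counts per library.

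Of 19 tested p75 adaptors and proteases of the receptor, 5 rose, 3 fell and 11 did not pass (median -0.05), a share of 42.1% called beside 39.4% for all tested genes. Psen2 and Psenen encode subunits of γ-secretase, which cuts p75 within the membrane after shedding. Psen2 went from 15.7 ± 0.952 to 31.3 ± 0.410 CPM and rose by 0.998 ± 0.084 (adjusted p = 6.84e-05), and Psenen rose by 0.48 ± 0.06 (6.28e-04). The adaptor gene Traf4 rose by 0.62 ± 0.08 (adjusted p = 8.18e-04), and Ripk2, a kinase recruited to the p75 death domain, fell by 0.50 ± 0.11 (adjusted p = 0.00669).

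Of 50 tested adaptors and kinases downstream of Trk and RET, 8 rose, 14 fell and 28 did not pass (median -0.08). That is 44% called, near the 39.4% of all tested genes. Insulin receptor substrate genes moved in opposite directions: Irs2 rose by 1.48 ± 0.05 (adjusted p = 1.09e-06, edgeR) and Irs1 fell by 1.22 ± 0.15 (adjusted p = 4.76e-04). Dok4, a docking protein of RET, fell by 0.66 ± 0.19 (adjusted p = 0.0267), with adjusted p of 0.0853 and 0.0697 when DMSO replicates 1 and 2 were left out in turn, and 0.0885 and 0.0775 for FSK replicates 2 and 3.

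Of 11 tested genes known to respond to neurotrophins in neurons, 7 rose, 2 fell and 2 did not pass (81.8% called, median 0.64); several of them, Fos among them, are also known to respond to cAMP directly. Fos, an immediate early gene, rose by 2.87 ± 0.12 (adjusted p = 2.24e-06, edgeR). Vgf, encoding a neuropeptide precursor induced by BDNF, had few counts and rose by 1.86 ± 0.25, going from 1.02 ± 0.258 to 3.72 ± 0.340 CPM (adjusted p = 7.08e-04). Gap43, a growth-cone gene, fell by 3.29 ± 0.42 (adjusted p = 5.94e-04; log2 fold change -3.89 without FSK replicate 2), and the injury-response factor gene Atf3 by 1.80 ± 0.18 (adjusted p = 1.5e-04). Over all 6 lists, with each gene counted once, 32 rose and 27 fell of 111 tested, 53.2% called beside 39.4% of all tested genes; 16 fell when DMSO replicate 2 was left out.

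**Figure D4:**
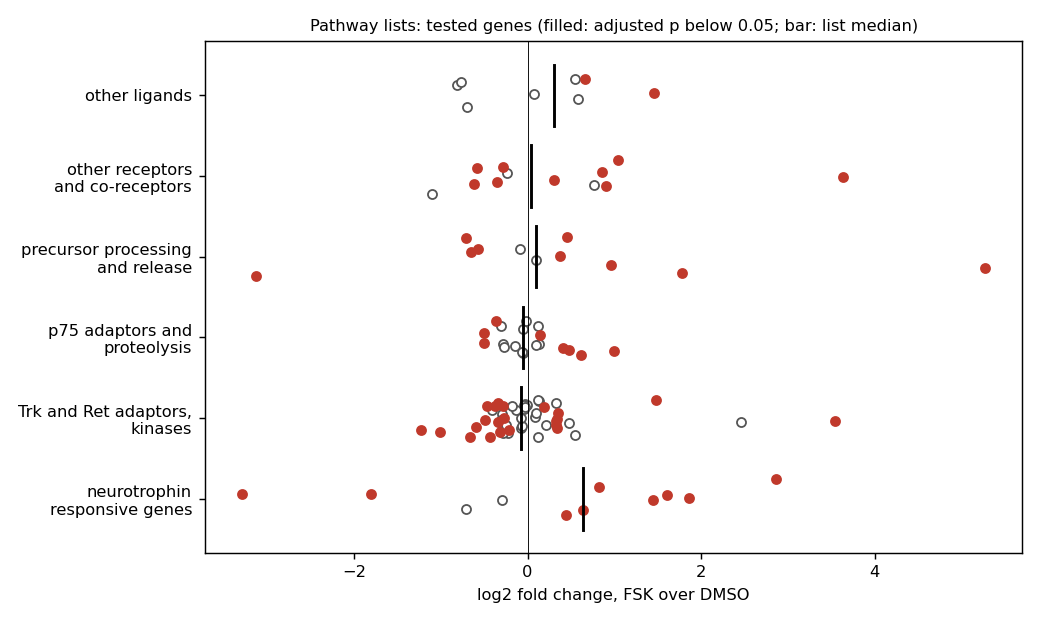
log2 fold change, FSK over DMSO, of each tested gene in 6 lists of ligands, receptors, processing enzymes, adaptors and responsive genes, filled where the adjusted p was below 0.05, with a bar at the list median. Medians ran from -0.08 for the downstream kinases to 0.64 for the responsive genes, and each list but that of the ligands held genes called in both directions.

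Across the 6 libraries, the genes whose log2 CPM ran most like each tested member were named by Pearson correlation, as a description that follows mainly from the difference between the groups. For Ngfr these were Nkain1 (r = 0.9998) and Tpcn2 (r = 0.9995), and for Ntrk2 they were Ell2 (r = 0.999) and Col15a1 (r = 0.999). For Gdnf they were Tbc1d9b (r = 0.998) and Ppp6r2 (r = 0.997). For Bdnf, whose groups overlapped, they were Tbc1d23 (r = 0.991) and Pura (r = 0.989).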

How the data were processed

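Total RNA of C6 cells was sequenced as paired reads, per the labels' protocols. The submitters' processing notes name cutadapt, HISAT2, StringTie, edgeR, DESeq2 and the build Rnor_6.0, without versions. The annotation release and strand rule are not given in the sources. Per the file headers, the authors deposited counts beside FPKM for each gene. The FPKM is 0.0001 where the count is 0.

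The 6 columns of counts went into edgeR 4.0.16 (R 4.3.3): TMM, the default expression filter, a quasi-likelihood test of FSK against DMSO with no block, and Benjamini-Hochberg adjustment over 14166 genes. The procedure was tested on simulated data in which far fewer genes changed than were called here, so that setting differs from the data. Standard errors come from the F statistic. Depth was 72.1 to 79.99 M counts. Within each group, libraries differed by more than counting error (chi-square over its degrees of freedom 30.4 to 56.0), and limits from 0 counts cover counting error only. Alternatives were DESeq2 1.42.0 and its size factors, limma 3.58.1 on log2 FPKM with pseudocounts of 1 and 0.1, no filter or a minimum of 1 FPKM, robust dispersion, a replicate block, and each library left out.

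All members were named, with the genes of the ligand and receptor lists, and up to 4 called genes per list with non-overlapping groups, at least 1 FPKM and the largest change. Likeness was taken over genes of at least 5 FPKM, 2 per member. A few genes that this rule names are not reported here. Members and lists were chosen with earlier results of these data known.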

Additional observations from a re-analysis of the deposited data

How the results depend on the processing

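Ngfr, Ntrk2 and Bdnf kept their direction and their side of the threshold in all 14 alternatives: log2 fold changes ran from 1.26 to 1.38 for Ngfr, from -1.99 to -1.53 for Ntrk2 and from -0.26 to -0.10 for Bdnf. Gdnf kept its direction, from -0.85 to -0.62, and lost its call in 1 alternative, without DMSO replicate 2 (-0.67, adjusted p = 0.0633); the cause was not tested. With each library left out, 1 member was called higher and 1 to 2 lower, and of the pathway genes 26 to 32 were called higher and 16 to 29 lower. Over all tested genes, 2169 to 2667 were then called higher and 2076 to 2738 lower, beside 2772 and 2804 with all libraries; limma gave 2392 and 3390 on log2(FPKM + 1) and 2375 and 3365 on log2(FPKM + 0.1). On log2(FPKM + 1), which compresses low values, Gfra2 was at 0.65, Pcsk2 at -0.25, Vgf at 0.76 and Gap43 at -1.44.

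Replicate numbers are shared between the groups, but same-numbered libraries did not deviate together (correlations of -0.04, 0.02 and -0.03 for numbers 1 to 3), and not every library correlated best with its own number. With a replicate block, the pathway genes called lower went from 27 to 20, the members' calls did not change, and Gdnf had adjusted p = 0.0276. Among named genes the block ended the calls of Gas1, Gfra2, Kidins220 and Lrig1 (adjusted p = 0.113, 0.0522, 0.0709 and 0.0824) and called Ncam1 (0.0322). Ntf3 and Ret could not be tested at 0 counts, and low counts limit what can be said of the scarce ligands.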
